A study of Homo sapiens with 2 samples.

Results

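The lysosome is the acidic compartment in which cells break down proteins, lipids and worn organelles. A proton pump, the V-ATPase, acidifies it: a ring of V1 subunits in the cytosol hydrolyses ATP and drives protons through the V0 subunits in the membrane. Cathepsins are the proteases that work in this acid. Autophagy feeds the lysosome by wrapping cytoplasm in a membrane sac, the autophagosome, through the ATG proteins. The transcription factor TFEB is known to switch on many lysosome and autophagy genes through a promoter motif called CLEAR. Liver cells use autophagy heavily, to turn over protein, lipid droplets and mitochondria.

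The genes described here are those whose array annotation gave a single symbol for a V-ATPase subunit of the ATP6V0 or ATP6V1 series, a cathepsin or a numbered ATG gene. To these were added LAMP1, LAMP2, CD63, CD68, NPC1, SQSTM1, GABARAP, GABARAPL1, GABARAPL2, MAP1LC3B, ULK1, ULK2, BECN1 and TFEB. NPC2 was sought too, but its row carried several gene names and was not used, and 4 rows of pseudogenes were left out. This gave 69 genes on 76 rows, of 22411 genes that had at least 1 row to themselves. One of the 69, ATP6V0E2-AS1, is an antisense RNA and no subunit.

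The cells were MHCC97H, a human liver cancer line, with GP73 knocked down, set against control cells that the labels describe as high in GP73. GP73, encoded by GOLM1, sits in the membrane of the Golgi apparatus. The series holds 1 Affymetrix array of each condition, so no value below has a replicate error and no p-value was computed. The titles mark the arrays shGP73 and shv. Neither the knockdown sequence nor the number of clones or cultures is stated in the labels.

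Values are log2 signals, and a difference is the knockdown array minus the control array, so a negative one is lower in the knockdown array. A gene is called measured here if the larger of its signals was at least 5.84, the median of that quantity over all genes. Of the 69 genes 50 were measured, and 11206 of all genes were. ATG2B was the 1 member above this floor in the control array only, and none was above it in the knockdown array only. GOLM1 had 7.46 in the knockdown array and 9.13 in the control array, 3.18-fold lower, rank 1 from the lowest. Median signals over all rows were 4.80 in the knockdown array and 4.72 in the control array. KRT8 and KRT18, keratins of liver epithelium, were measured on both arrays. Of 12 hepatocyte and liver cancer markers with a row 6 were measured, 1 of them above the floor in the control array only. ALB and AFP, albumin and alpha-fetoprotein, were below the floor on both arrays. Of fibroblast markers 1 of 5 with a row was measured and of endothelial markers 2 of 5, 1 of them above the floor in the control array only. By the definition of the floor 11206 of all 22411 genes were measured. As a guide to measurement error, different rows for one gene had an SD of 0.133 between their differences, over 99 genes with 2 rows each. That SD covers neither cultures nor hybridisations.

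Few of the lysosome and autophagy genes differed by much between the knockdown and the control array. Where a gene differed, fewer cells expressing it and less RNA per cell cannot be told apart in a bulk sample. At 1.5-fold, a log2 difference of 0.585, 1 of the 50 measured members was higher in the knockdown array, the aspartic protease CTSE, and 0 were lower. Over all measured genes 1.08% were higher and 1.55% lower at that fold, so 1 of 50 is near the background. No member reached 2-fold, beside 0.161% of all measured genes higher and 0.134% lower. At a smaller threshold, a log2 difference of 0.322 in size, 3 members were higher, against 8.24% of all measured genes, and 5 were lower, against 11.5%. The 3 were CTSE, CD68 and ATP6V0E2. The 5 were the V1 subunit genes ATP6V1C1, ATP6V1A and ATP6V1D, the cathepsin CTSC and the autophagy initiator ATG13. The median difference of the 50 was -0.04, beside -0.0063 over all measured genes, and 28 were below 0, 21 above it and 1 at 0. Over all measured genes 50.5% were below 0 and 47.8% above. The sign of that median turned with quantile normalisation, at 0.02, so no common direction is given.

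**Figure D1:**
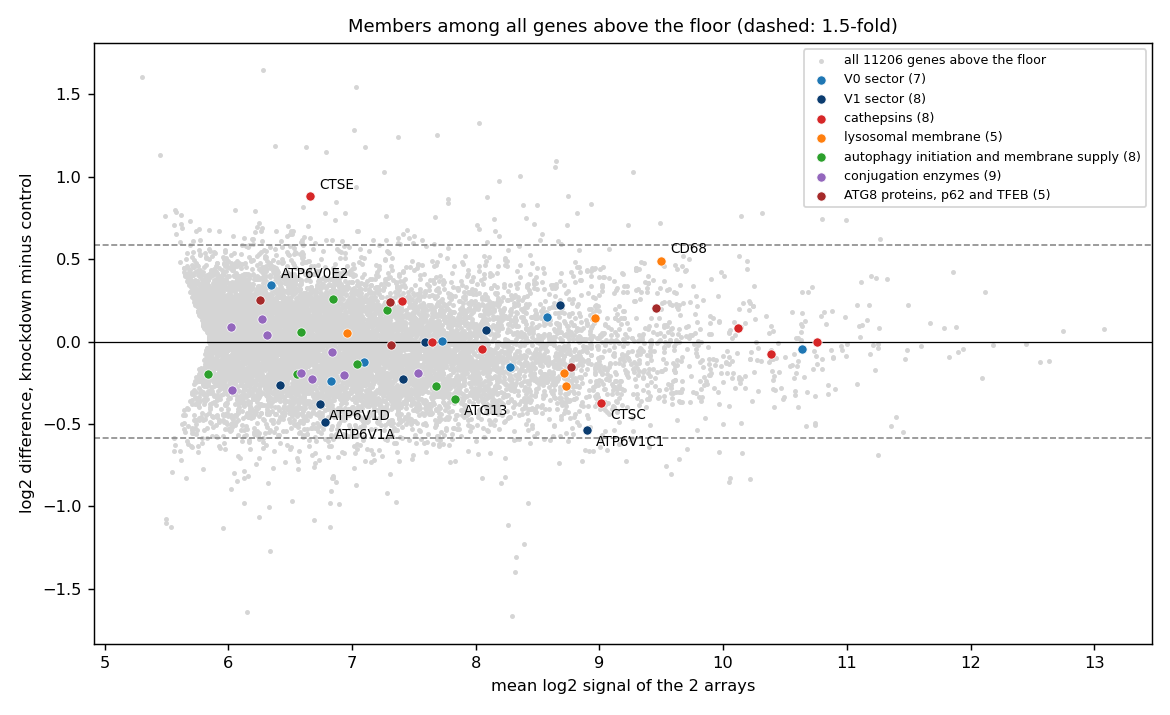
Log2 difference, knockdown minus control (vertical axis), against the mean log2 signal of the 2 arrays (horizontal axis) for the 11206 measured genes (grey) and the 50 measured members, coloured by role. CTSE at 0.88 is the member outside the dashed 1.5-fold lines, and the others lie inside the cloud of all genes.

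Because TFEB binds the CLEAR motif, the promoters of the members were searched for its core. RefSeq windows of GRCh38.p14, from 250 bases before to 50 after a start, were at hand for 55 of the 69 genes. The letters TCACGTGA, which read the same on both strands, occurred in a window of 5 of these 55 (9.09%), against 1.18% of the 27305 genes in the table. The 5 were ATP6V1G1, ATP6V0D1, CTSA, LAMP1 and ATG3. Below are the 100 bases just before the start of the 4 in which the motif lies before the start, 5′ to 3′ on the gene's strand, with the motif in capitals.
ATP6V1G1, chr9:114587669-114587768, plus strand: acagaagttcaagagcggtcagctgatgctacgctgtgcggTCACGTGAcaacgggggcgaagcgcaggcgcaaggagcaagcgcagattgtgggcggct
ATP6V0D1, chr16:67481158-67481257, minus strand: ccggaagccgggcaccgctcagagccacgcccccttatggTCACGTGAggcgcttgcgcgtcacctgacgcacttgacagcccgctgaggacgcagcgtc
CTSA, chr20:45891235-45891334, plus strand: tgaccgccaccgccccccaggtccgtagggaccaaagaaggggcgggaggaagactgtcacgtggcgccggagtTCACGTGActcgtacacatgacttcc
LAMP1, chr13:113297139-113297238, plus strand: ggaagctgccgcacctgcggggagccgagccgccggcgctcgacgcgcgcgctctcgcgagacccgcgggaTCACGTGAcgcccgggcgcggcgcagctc

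The motif ended 51 bases before the start in ATP6V1G1, 52 in ATP6V0D1, 18 in CTSA and 21 in LAMP1. LAMP1 held a second copy of TCACGTGA that spans the start, so it is cut off in the stretch above and not marked. A match of letters is a description and not a bound site. The motif is known from lysosome and autophagy genes, so its share among the members describes their promoters and not these arrays. The genes in the table, against which that share was set, include some that were not measured here. The shorter core CACGTG, which every TCACGTGA contains, occurred in 11 of the 55 genes (20.0%), against 8.77% of all genes in the table. The 5 members with TCACGTGA had a median difference of 0.05, and the 37 measured members with a window but without it -0.02. Over all measured genes the medians were -0.07 for 190 genes with the motif and -0.02 for 8204 without. TFEB itself was below the floor on both arrays, at 5.64 in the knockdown array and 5.56 in the control array.

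The V1 sector is the cytosolic motor of the pump, and 8 of its 13 genes were measured. Of these 8, 3 were lower by 0.322 or more, beside 11.5% of all measured genes, and 1 of the 3, ATP6V1D, turned to 0.12 with the mean over its rows. The median difference of the 8 was -0.24, but the sector's median was -0.11 over the 6 genes above a floor at the 75th percentile and 0.00 over all 13 genes with no floor. ATP6V1C1, the C subunit that couples motor and membrane sectors, had 8.63 in the knockdown array and 9.17 in the control array, 1.45-fold lower. ATP6V1A, the catalytic subunit that hydrolyses ATP, had 6.54 in the knockdown array and 7.03 in the control array, 1.40-fold lower. Their differences of -0.53 and -0.49 were rank 264 and rank 379 from the lowest of the 11206. Both are short of 1.5-fold. With each array centred on its median ATP6V1C1 passed that fold, but this setting moved the median of all measured genes to -0.10.

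ATP6V1D, a subunit of the central rotor, was 1.30-fold lower, at 6.55 in the knockdown array and 6.93 in the control array. A second row of ATP6V1D, below the floor on both arrays, went the other way, at 4.34 in the knockdown array and 3.73 in the control array. The mean of both rows was of opposite sign, as given above, so the direction for ATP6V1D rests on its brighter row. ATP6V1H, the regulatory H subunit, stood at -0.26, and ATP6V1B2, the B subunit of most cells, at -0.23. The other measured V1 genes stood at or above 0 in the signals as deposited. ATP6V1G1, part of the peripheral stalk, had 8.79 in the knockdown array and 8.57 in the control array, 1.17-fold higher. ATP6V1F, of the rotor, stood at 0.07.

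ATP6V1E1, the partner of the G subunit in the stalk, had 7.59 on both arrays, identical to the last deposited digit. Such identical pairs were found for 190 of the 11206 measured genes (1.7%), while only 34 others differed by at most 0.002. The deposited values thus hold more exact ties than near ties, and a difference of exactly 0 was not read here as an unchanged gene. The V1 genes below the floor were ATP6V1B1, ATP6V1C2, ATP6V1E2, ATP6V1G2 and ATP6V1G3, each an alternative form of a subunit used in particular tissues such as kidney, testis or brain. Their differences ran between 0.00 and 0.19. ATP6V1G2 was represented by 7 rows with differences between 0.16 and 0.19, of which 4 shared the same pair of values.

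The V0 sector, which forms the proton path, showed smaller differences in both directions. Of its 8 genes 7 were measured, 4 with a difference below 0 and 3 above it, with a median of -0.04. ATP6V0E2, an alternative form of the small e subunit, had 6.52 in the knockdown array and 6.18 in the control array, 1.27-fold higher. ATP6V0E2-AS1, an RNA annotated on the opposite strand, was below the floor, at 5.16 in the knockdown array and 4.71 in the control array. Whether the probes of each row read only their own strand was not tested. The usual e subunit gene, ATP6V0E1, stood at -0.04.

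The remaining V0 genes lay within 0.322 of 0. ATP6V0C, the proteolipid whose copies make up most of the rotating membrane ring, was 1.11-fold higher, at 8.65 in the knockdown array and 8.50 in the control array. ATP6V0B, another proteolipid of that ring, was 1.18-fold lower, at 6.71 in the knockdown array and 6.95 in the control array. ATP6V0A1 and ATP6V0A2, forms of the large a subunit that holds the proton channels, stood at -0.15 and -0.12. ATP6V0D1, the d subunit that links ring and rotor, stood at 0.0035, and its alternative form ATP6V0D2 was below the floor. Whether the V0 and V1 medians differ was not tested.

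**Figure D2:**
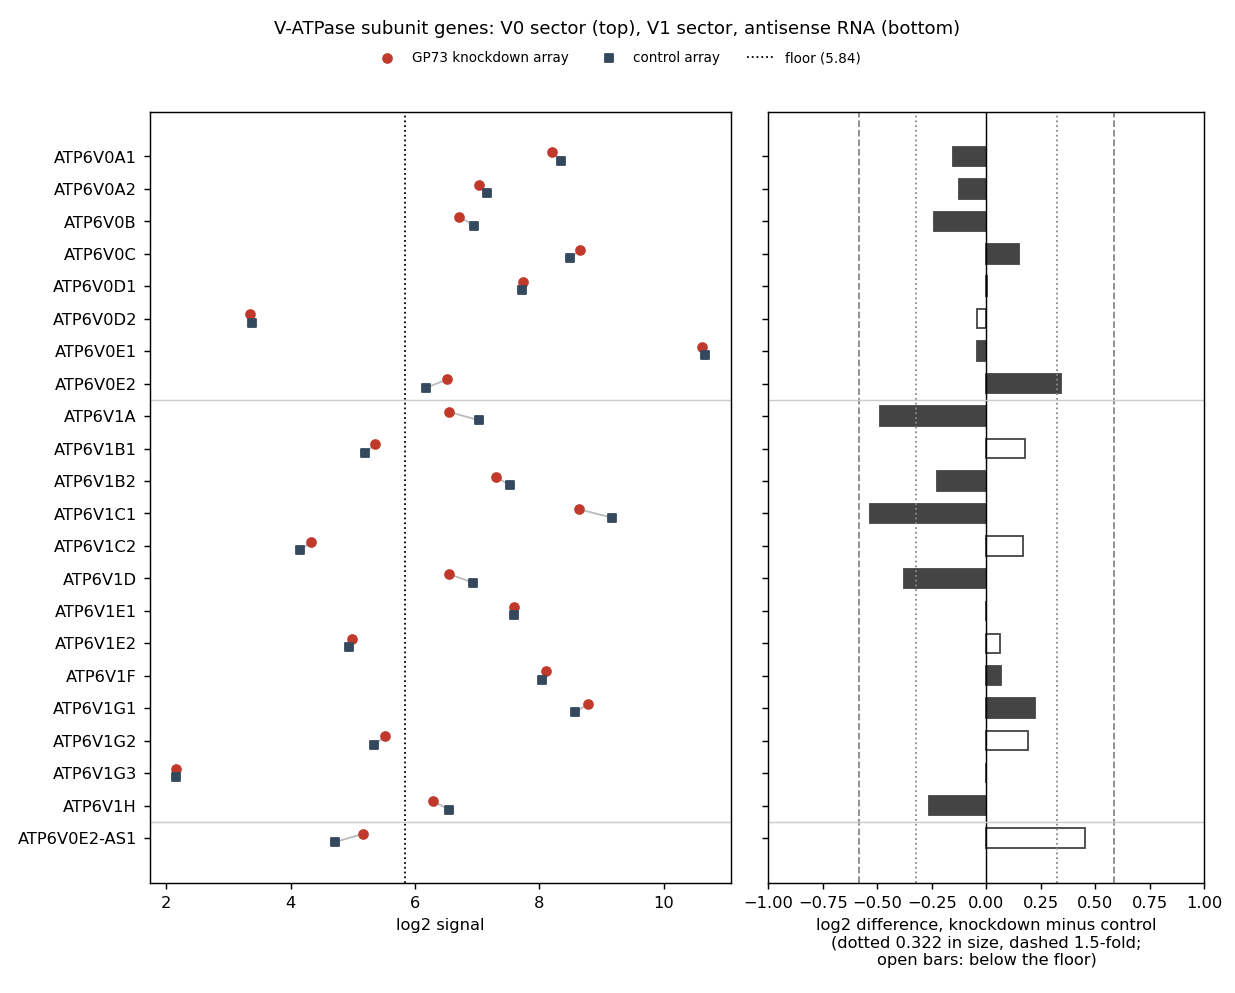
Log2 signals of the V-ATPase genes on the knockdown array (red circles) and the control array (dark squares), left, and their differences, right, with open bars for genes below the floor. The bars of ATP6V1A, ATP6V1C1 and ATP6V1D pass the dotted line at 0.322 in size on the lower side, and that of ATP6V0E2 on the higher side; ATP6V0E2-AS1 passes it from below the floor.

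Among the cathepsins CTSE stood apart from the rest. CTSE, cathepsin E, is an aspartic protease of endosomes, found chiefly in stomach lining and immune cells. It had 7.10 in the knockdown array and 6.22 in the control array, a difference of 0.88, or 1.84-fold higher. That was rank 22 from the highest of 11206 measured genes, both signals were above the floor, and the difference was 0.88 with the trend over signal level removed. CTSD, the main aspartic protease of lysosomes and a relative of CTSE, had 10.35 in the knockdown array and 10.42 in the control array. The difference for CTSD, -0.07, was within the SD between rows of 1 gene.

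Of the cysteine cathepsins CTSC was the lowest among those measured. CTSC, cathepsin C or dipeptidyl peptidase 1, activates serine proteases of immune granules by trimming their ends, and had 8.82 in the knockdown array and 9.20 in the control array, 1.30-fold lower. CTSH, an aminopeptidase, was 1.18-fold higher, at 7.53 in the knockdown array and 7.29 in the control array. The broad proteases CTSB and CTSL stood at -0.04 and 0.0001, and CTSZ, a carboxypeptidase, at -0.0015. CTSA, a serine carboxypeptidase that also protects lysosomal sialidase and galactosidase, stood at 0.08. Across the 8 measured cathepsins the median was -0.0007, with 4 above 0 and 4 below. The other 7 cathepsin genes, CTSF, CTSG, CTSK, CTSO, CTSS, CTSV and CTSW, were below the floor, with differences between -0.39 for CTSS and 0.34 for CTSW.

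Of the lysosomal membrane genes CD68 was the highest. CD68, a heavily glycosylated lysosomal protein best known as a macrophage marker, had 9.74 in the knockdown array and 9.25 in the control array, 1.41-fold higher. Of all measured genes 98.0% had a lower difference. None of the other 8 macrophage and leukocyte markers with a row, among them PTPRC and CD14, was above the floor. Their summed linear signal was 181.4 in the knockdown array and 167.7 in the control array. Of the 8, 0 were 1.5-fold higher or lower, beside 2.42% of all 22411 genes past that fold in either direction with no floor. With no floor, 2 of 12 hepatocyte and liver cancer markers and 1 of 5 endothelial markers were 1.5-fold lower, and 0 of 5 fibroblast markers were. None on these lists was 1.5-fold higher.

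LAMP2, which lines the lysosome and is needed for its fusion with autophagosomes, was 1.21-fold lower, at 8.60 in the knockdown array and 8.87 in the control array. Its relative LAMP1 stood at 0.05, with 6.99 in the knockdown array and 6.94 in the control array. CD63, a tetraspanin of late endosomes and exosomes, was 1.14-fold lower, at 8.62 in the knockdown array and 8.81 in the control array. NPC1, which carries cholesterol out of the lysosome, was 1.10-fold higher, at 9.03 in the knockdown array and 8.89 in the control array. The 5 genes therefore had no common direction, and their median was 0.05, or -0.04 with each array centred on its median.

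**Figure D3:**
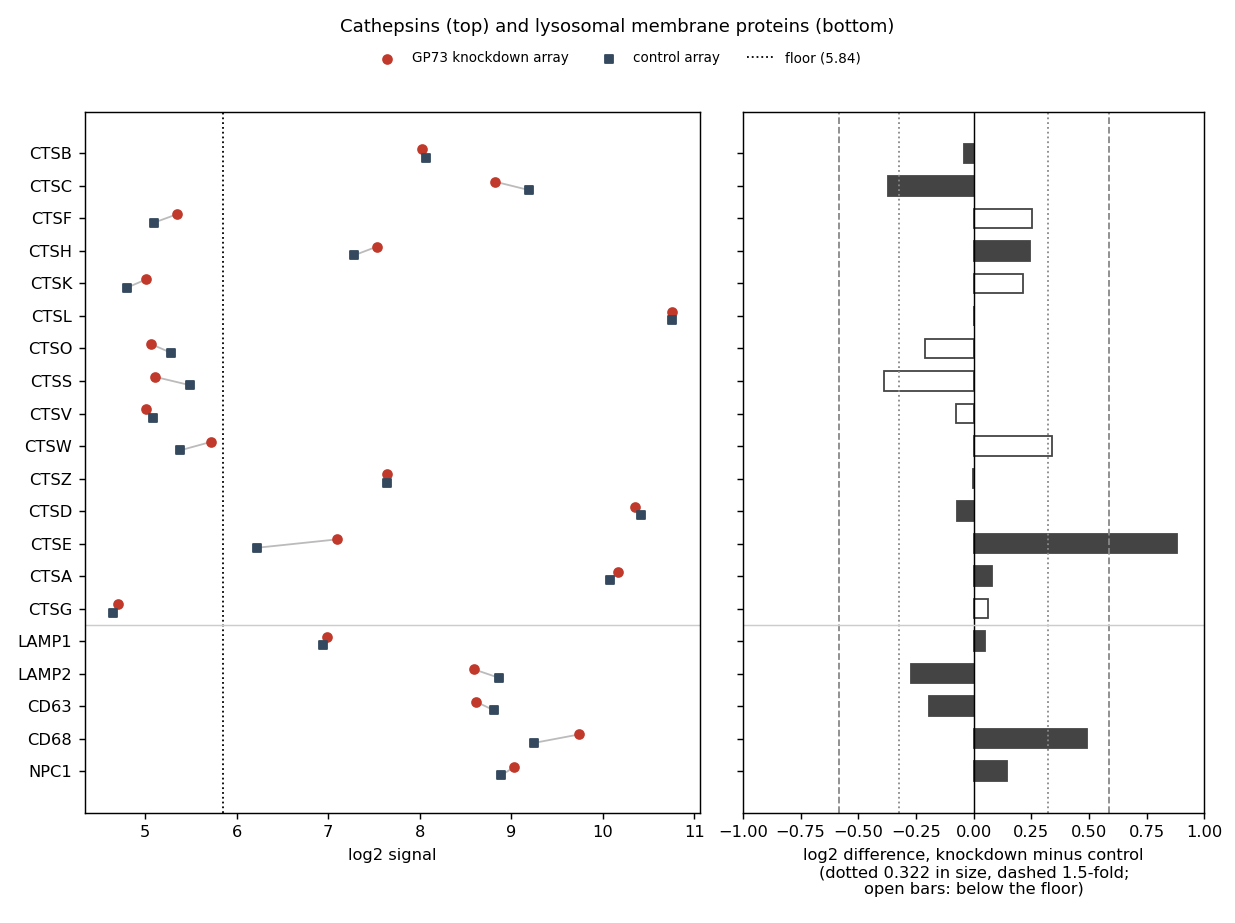
Log2 signals of the cathepsin and lysosomal membrane genes on the knockdown array (red circles) and the control array (dark squares), left, and their differences, right, with open bars for genes below the floor. CTSE at 0.88 passes the dashed 1.5-fold line, and CD68 at 0.49 and CTSC at -0.37 pass the dotted line at 0.322 in size, as do CTSS and CTSW from below the floor.

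Genes that start autophagy had small differences in both directions. Of 10 genes 8 were measured, 5 below 0 and 3 above, beside 50.5% of all measured genes below 0, and their median was -0.16. That median was -0.09 over all 10 genes with no floor and -0.25 with each array centred on its median. ATG13, the adaptor of the ULK kinase complex, had 7.66 in the knockdown array and 8.00 in the control array, 1.27-fold lower. The kinase itself, ULK1, was 1.20-fold higher, at 6.97 in the knockdown array and 6.71 in the control array. ATG101, which binds and steadies ATG13, stood at 0.19. The genes of this 1 complex thus differed in both directions, and ULK2 was below the floor.

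BECN1, the scaffold of the lipid kinase complex that marks the forming membrane, was 1.21-fold lower, at 7.55 in the knockdown array and 7.82 in the control array. ATG14, which brings that complex to the endoplasmic reticulum, was 1.14-fold lower, at 6.46 in the knockdown array and 6.65 in the control array. ATG9A, a lipid scramblase carried on Golgi-derived vesicles that seed the autophagosome, stood at -0.13, and ATG9B was below the floor. The lipid transfer proteins ATG2A and ATG2B stood at 0.06 and -0.20.

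The conjugation enzymes attach ubiquitin-like proteins to one another and to the lipid phosphatidylethanolamine. Of these 11 genes 9 were measured, 6 below 0 and 3 above, beside 50.5% of all measured genes below 0. Their median was -0.19, or -0.13 with quantile normalisation. Their differences ranged between -0.29 and 0.14, so none reached 0.322 in size. Over all measured genes 8.24% were higher and 11.5% lower by as much. ATG12, a ubiquitin-like protein joined to ATG5, was the lowest of the 9, at 5.88 in the knockdown array and 6.18 in the control array. ATG7, the activating enzyme of both conjugation systems, had 6.56 in the knockdown array and 6.79 in the control array. ATG3, the enzyme that passes ATG8 proteins to the lipid, stood at -0.19, ATG16L1, which directs the final step, at -0.19, and ATG5 at -0.07. ATG16L2, a relative of ATG16L1, stood at 0.09.

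The ATG4 proteases, which trim ATG8 proteins and release them from the lipid, had no common direction. ATG4A stood at -0.20, ATG4B at 0.04 and ATG4D at 0.14. ATG4C had 5.06 in the knockdown array and 5.79 in the control array, a difference of -0.73. Both signals were below the floor of 5.84, the control signal narrowly, so ATG4C was not counted as measured. With no floor ATG4C, lower, and CTSE, higher, were the members past 1.5-fold, and 2.42% of all 22411 genes were past it in either direction. ATG10, the enzyme that joins ATG12 to ATG5, was also below the floor, at 4.93 in the knockdown array and 5.15 in the control array.

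The ATG8 proteins, the tags that coat the autophagosome and catch its cargo, had differences above 0 in 3 of 4 cases, beside 47.8% of all measured genes. None reached 0.322 in size, beside 8.24% of all measured genes higher and 11.5% lower by as much. MAP1LC3B, the usual LC3 marker of autophagosomes, had 7.42 in the knockdown array and 7.18 in the control array, 1.18-fold higher. GABARAPL1 had 6.38 in the knockdown array and 6.13 in the control array, 1.19-fold higher. GABARAP had 9.56 in the knockdown array and 9.36 in the control array, 1.15-fold higher. GABARAPL2 stood at -0.02. MAP1LC3B has a near-identical copy in the genome, MAP1LC3B2, and GABARAPL1 has GABARAPL3, so the split of signal between the copies is uncertain. SQSTM1, or p62, the receptor that ties ubiquitinated cargo to LC3, was 1.11-fold lower, at 8.70 in the knockdown array and 8.85 in the control array. All 5 were within 0.322 of 0, and each of the 3 higher genes kept its sign under the other scalings of the arrays.

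**Figure D4:**
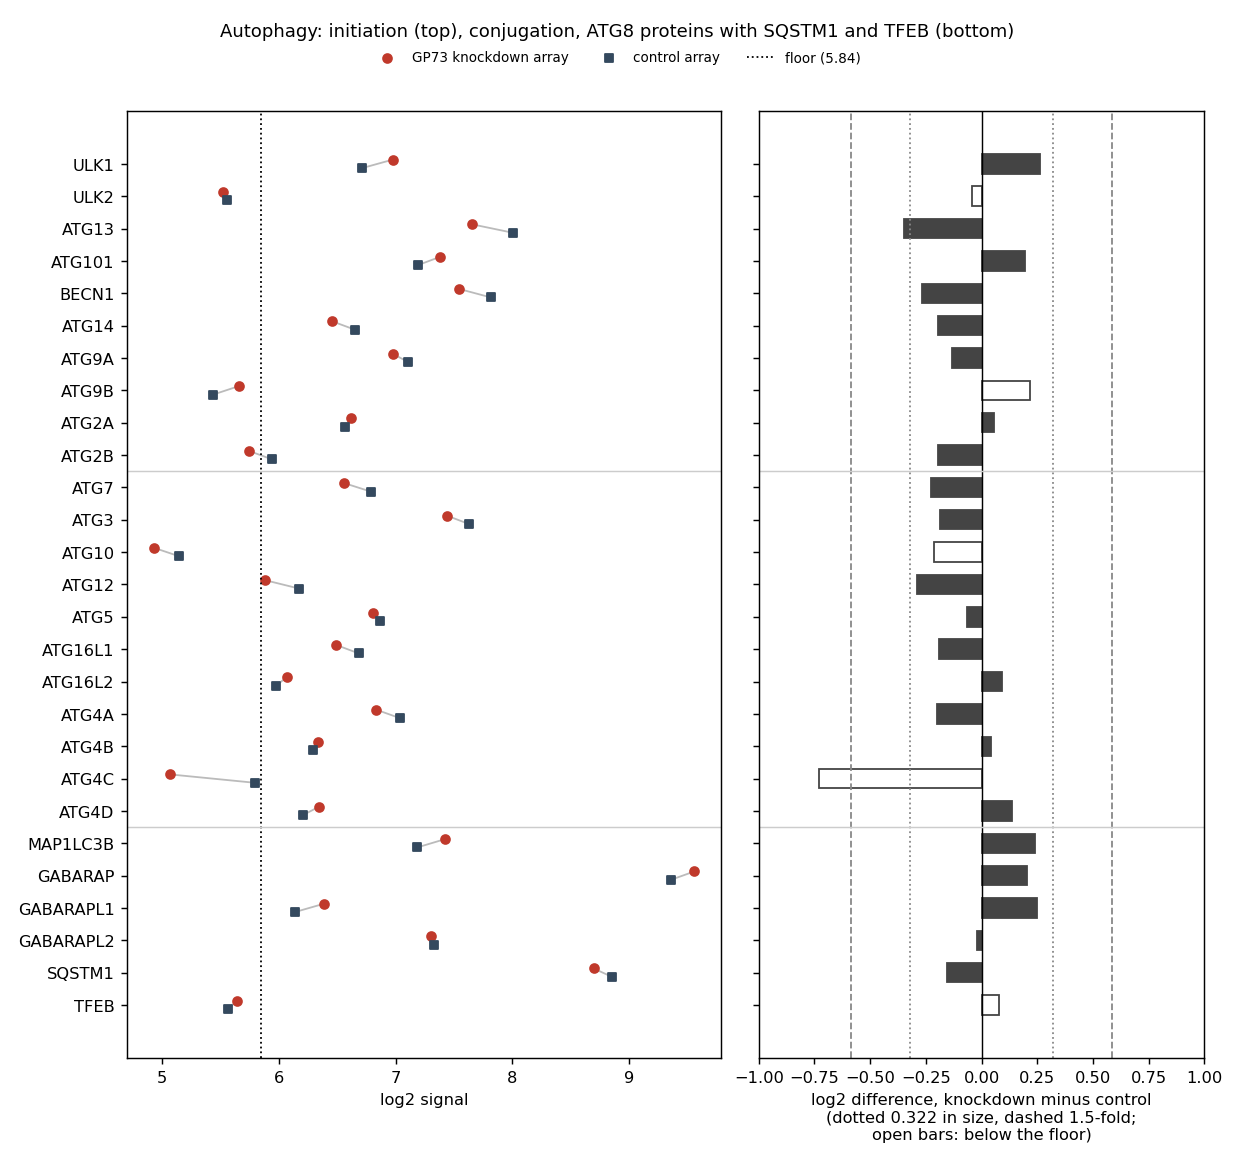
Log2 signals of the autophagy genes on the knockdown array (red circles) and the control array (dark squares), left, and their differences, right, with open bars for genes below the floor. ATG13 passes the dotted line at 0.322 in size from above the floor, and ATG4C, an open bar, passes the dashed 1.5-fold line.

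Other genes of the same pathways, on 8 lists without the members, gave a similar picture. At 1.5-fold 1 of the 135 measured genes on them was lower and 0 were higher, beside 1.55% lower and 1.08% higher over all measured genes, so the lists did not exceed the background. The lower gene was RB1CC1, the FIP200 scaffold of the ULK complex, with 7.03 in the knockdown array and 7.65 in the control array, 1.53-fold lower. In the same list TMEM41B, a lipid scramblase, stood at -0.46 and UVRAG, a partner of BECN1, at -0.43; the list's median was -0.05 over 15 genes. ATG13 and RB1CC1, which bind one another in the ULK complex, were thus both lower, while ULK1 and ATG101 were higher.

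Of the V-ATPase partners and assembly factors 10 were measured, with a median of -0.18. ATP6AP2, an accessory subunit also known as the prorenin receptor, had 8.19 in the knockdown array and 8.60 in the control array, 1.32-fold lower. WDR7, of the complex that reassembles the pump, stood at -0.27 and OXR1, a TLDc protein that interacts with the pump, at -0.25. Of the other lysosomal membrane genes 14 of 19 were below 0, beside 50.5% of all measured genes, with a median of -0.19. CLCN7, a chloride and proton exchanger of lysosomes, stood at -0.37, CD164, a lysosomal sialomucin, at -0.38, and SLC29A3, a nucleoside transporter, at 0.46. The soluble hydrolases had a median of 0.00 over 31 genes, with 15 above 0 and 15 below. None was past 0.322 in size, beside 8.24% of all measured genes higher and 11.5% lower by as much. IDUA and ARSA, which degrade glycosaminoglycans and sulfatides, both stood just short of 0.322, at 0.32, and SCPEP1, a carboxypeptidase, at -0.31. The mannose 6-phosphate sorting genes, which deliver hydrolases through the Golgi, also had none of 13 past 0.322 in size, beside the same shares. GNPTG stood at 0.28, AP1G1 at -0.27 and AP3B1 at -0.24.

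The genes of the mTORC1 switch at the lysosome were listed together with transcription factors of the TFEB family. Of the 15 measured genes on this list 11 were below 0, beside 50.5% of all measured genes, with a median of -0.13. RRAGD, a Rag GTPase that TFEB is known to induce, stood at -0.46, RRAGB at -0.32 and LAMTOR4, of the Ragulator scaffold, at 0.35. The cargo receptors and regulators had a median of -0.10 over 15 genes. SEC62, a receptor for endoplasmic reticulum, stood at -0.56, TAX1BP1, a ubiquitin-binding receptor, at -0.37, and BNIP3, a receptor for mitochondria, at 0.31. Among 17 genes of autophagosome and lysosome fusion 3 were higher by 0.322 or more, beside 8.24% of all measured genes, and 3 lower by as much, beside 11.5%. TBC1D15, a Rab7-directed regulator, stood at -0.52, TBC1D5, of the retromer pathway, at -0.46, and BLOC1S1, a subunit of complexes that position lysosomes, at 0.52. All of these medians describe 1 array against 1 array.

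**Figure D5:**
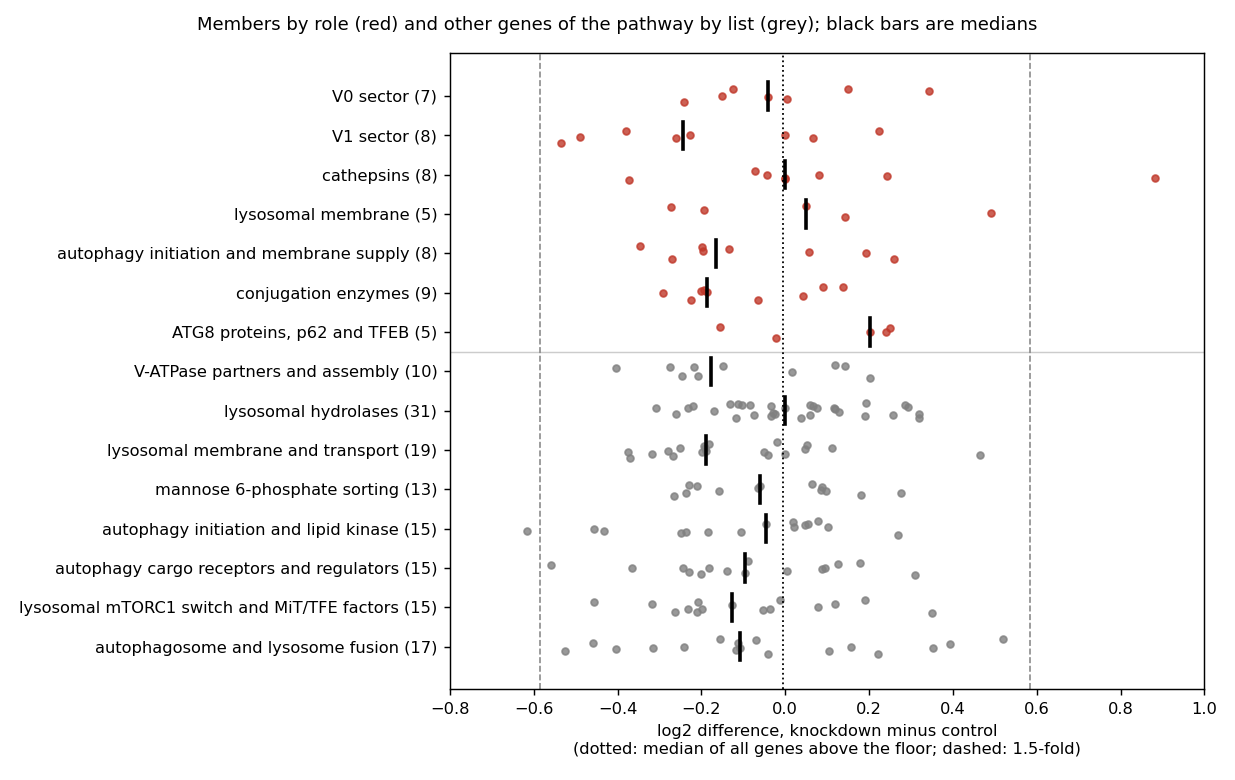
Log2 differences, knockdown minus control, of the measured members by role (red) and of other measured genes of the pathway by list (grey), with black bars at the medians and a dotted line at the median of all measured genes. The median is -0.24 for the V1 sector (0.00 with no floor) and 0.20 for the ATG8 proteins with SQSTM1 (0.14 with no floor, which adds TFEB). For the cathepsins, where CTSE lies at 0.88, it is -0.0007 (0.06 with the trend over signal removed).

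Differences followed signal level over all genes. In 5 bins of mean signal, of near-equal size over the measured genes, the median was 0.11 in the lowest bin and -0.08 in the highest. The members lay mostly in the upper part, with 17 of 50 in the highest bin, where their median was -0.04, and 3 in the lowest. With that trend removed, the median was -0.23 for the V1 sector, which moved more with the floor as given above. The trend-removed medians were -0.16 for the initiation genes, -0.16 for the conjugation enzymes and 0.21 for the ATG8 proteins with SQSTM1. For the conjugation enzymes this covered 10 genes, as ATG4C then passed the floor, against 9 as deposited. The V0 and cathepsin medians were 0.01 and 0.06, against -0.04 and -0.0007 in the signals as deposited. Small differences turned sign with the scaling. Among measured members these were ATP6V0D1, ATP6V1F, CTSL, CTSA, LAMP1, ATG2A and ATG4B with median centring, and ATP6V0E1, CTSB, CTSZ, CTSD and GABARAPL2 with quantile normalisation. Each was within 0.10 of 0 as deposited and in the named setting that turned its sign.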

How the data were processed

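Total RNA (100 ng) of each cell population was labelled as biotinylated cDNA and hybridised to 1 Affymetrix array, per the labels' protocols. The authors deposited log2 signals, and the submitters' processing notes name Affymetrix Expression Console. The log2 scale was read from the values, which ran between 0.33 and 13.3. Background correction, normalisation and software version: not given in the sources used here. Scanner files were not used here.

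Of 70523 rows 23781 had 1 gene symbol in the platform annotation. Symbols were updated through the RefSeq gene table of GRCh38.p14, and all 76 rows of members matched by gene identifier. The row with the highest mean stood for a gene. With 1 array per group nothing could be tested between conditions, and precision is limited by that number. A fold of 1.5 and a log2 difference of 0.322 in size, and the share of all measured genes past them, were used for description. The members, their role groups and the 8 gene lists were chosen with earlier results of these data known. The text may name every member, GOLM1, and, for each list, at most 3 measured genes, those that differed most in size. The markers PTPRC, CD14, KRT8, KRT18, ALB and AFP came from a fixed marker list. MAP1LC3B2 and GABARAPL3 are named for their sequence only.

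Alternatives were median centring, quantile normalisation, removal of a lowess trend (span 0.2), no floor, a floor at the 75th percentile or on the mean signal, the mean over rows, updated symbols, the smaller threshold, and a fold of 2. Counts, medians and scalings were tested on simulated data, as a check of the code. The simulated noise was smaller than the spread between rows of 1 gene, and the planted changes lay beyond the fold. The precision of these arrays was therefore not tested. Python 3.11.15, numpy 2.4.6, pandas 2.3.3, scipy 1.17.1, statsmodels 0.14.6 and matplotlib 3.10.9 were used.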

Additional observations from a re-analysis of the deposited data

Results flagged for a closer look

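A second row of ATP6V1D, outside the comparison because its signal was the lower of the gene's rows, was higher in the knockdown array than in the control array by 0.612 on the log2 scale. Both of its signals were below the floor, and its direction was opposite to that of the brighter row of ATP6V1D.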

How the results depend on the processing

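CTSE was the 1 member at least 1.5-fold higher under every scaling, floor and row rule tried, and 0 members were 2-fold higher or lower. At a log2 difference of 0.322 in size, a lower threshold, 3 of the 50 members (6.0%) were higher and 5 (10.0%) lower. The background shares past this threshold were 8.24% on the higher side and 11.5% on the lower side, so neither count exceeded the background. The number at least 1.5-fold lower was 0 as deposited, 2 with median centring (ATP6V1C1 and ATG4C), 1 with the trend over signal removed (ATG4C, which then passed the floor) and 1 with no floor (ATG4C). The median of the members, -0.04 as deposited, was -0.13 with median centring, 0.0161 with quantile normalisation, 0.0033 with the trend removed and -0.0015 with no floor. Median centring lowered every difference by the same amount, and the median of all measured genes moved to -0.10 with it. The members' shift under it is therefore no trait of the members. The share of all genes at least 1.5-fold lower is not given for the rescaled arrays. The counts of 2 and 1 therefore have no background beside them and were not read as a trait of those genes. The V1 median was -0.33 with median centring, 0.00 with no floor, which adds 5 dim genes, and -0.11 when the floor was the 75th percentile. The median of the ATG8 proteins with SQSTM1 and TFEB lay between 0.09 and 0.22 in the settings tried. Single differences changed sign in 10 of 69 genes with median centring, 8 with quantile normalisation and 7 with the trend removed. With the mean over rows ATP6V1D stood at 0.12. No paired analysis was possible because each group holds 1 array, and no replicate could be left out for the same reason. Without replicates no difference can be set against the spread between cultures.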

Other observations

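Rows of the same families that were left out of the comparison had small differences. The row shared by NPC2, which hands cholesterol to NPC1, and a microRNA gene stood at -0.12. A row shared by ATG9B and another gene stood at 0.21, with 6.02 in the knockdown array, above the floor, and 5.81 in the control array, below it. A row of several names, among them a joint gene of ATP6V1G2, stood at -0.02. The pseudogene rows CTSLP2, CTSL3P, CTSLP8 and ATP6V0CP3 stood at 0.24, 0.09, -0.20 and -0.05, of which CTSLP2 and ATP6V0CP3 reached the floor.

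Exact ties between the arrays were common in the deposited values, in 4359 of the 70523 rows. Among the members they occurred for ATP6V1E1, at 7.59, and ATP6V1G3, at 2.16, and the cause was not tested.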
